A study of Homo sapiens with 6 samples.

Results

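The NF-kB system was described here through 10 genes, picked by symbol from the 30051 genes of the count table. They are the 5 Rel subunit genes NFKB1, NFKB2, REL, RELA and RELB, the inhibitor genes NFKBIA, NFKBIE and NFKBIZ, and the feedback genes TNFAIP3 and BIRC3. All 10 had counts and all 10 passed the filter on low counts, with at least 48 counts of each in every library. The RNA came from MDA-MB-231, an established human breast cancer line of the claudin-low, triple-negative type, known for constitutive NF-kB activity. Cells in DMEM/F-12 medium with serum were kept for 24 h in the solvent DMSO or in panobinostat, which blocks most histone deacetylases, at 50 nM. DMSO had 3 libraries (replicates 1, 2 and 3) and so had panobinostat (replicates 1, 2 and 4), which the series describes as independent repeats of 1 cell line. The p-values below set the difference between the treatments against the spread between these libraries.

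NF-kB is a family of dimeric transcription factors whose subunits share the Rel homology domain. In resting cells IkB proteins hold the dimers in the cytoplasm. In the canonical route the IKK kinase complex marks IkB for destruction and frees dimers of RELA or REL with p50, the processed product of NFKB1. In the non-canonical route the kinase NIK drives processing of the NFKB2 product p100 to p52, which pairs with RELB. Active NF-kB raises transcription of its own inhibitors and subunits, which makes NFKBIA, TNFAIP3 and BIRC3 classical feedback readouts.

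Rel dimers bind DNA at the kB motif, and the letters of 4 promoters, 3 with a match to it and 1 without, are shown beside the values that follow. RefSeq gave promoter windows on GRCh38.p14, each from 250 bases before a start site to 50 after it, for 8 of the 10 genes, 13 windows in all. RELB and NFKBIE had no window. Printed here, 5′ to 3′ on the gene's strand, are the 250 bases before the start of BIRC3, which rose most, NFKB1, which fell most, NFKBIA, the classical inhibitor, and RELA, whose level stood nearest to its DMSO value. Capitals mark matches, on either strand, to the kB consensus, the 10-base motif of Rel dimers. Overlapping matches were each counted. NFKB1 and RELA have 2 windows each, of which the upstream is printed. The other NFKB1 window held no match.
BIRC3 promoter, chr11:102317234-102317483, plus strand: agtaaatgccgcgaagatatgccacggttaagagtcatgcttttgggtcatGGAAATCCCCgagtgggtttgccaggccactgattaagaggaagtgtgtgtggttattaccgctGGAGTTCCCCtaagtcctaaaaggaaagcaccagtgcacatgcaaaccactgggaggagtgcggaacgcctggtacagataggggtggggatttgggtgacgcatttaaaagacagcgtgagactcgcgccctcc
NFKB1 promoter, chr4:102501109-102501358, plus strand: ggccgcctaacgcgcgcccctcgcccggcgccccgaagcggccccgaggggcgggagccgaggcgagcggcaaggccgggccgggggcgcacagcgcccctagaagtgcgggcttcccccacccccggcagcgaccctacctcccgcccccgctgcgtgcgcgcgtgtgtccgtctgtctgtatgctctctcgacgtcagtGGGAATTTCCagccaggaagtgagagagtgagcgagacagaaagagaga
NFKBIA promoter, chr14:35404750-35404999, minus strand: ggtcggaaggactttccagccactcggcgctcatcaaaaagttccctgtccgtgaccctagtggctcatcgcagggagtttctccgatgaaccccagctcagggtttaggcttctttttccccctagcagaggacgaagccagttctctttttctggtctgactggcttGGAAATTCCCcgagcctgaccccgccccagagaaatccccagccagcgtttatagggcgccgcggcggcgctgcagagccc
RELA promoter, chr11:65663858-65664107, minus strand: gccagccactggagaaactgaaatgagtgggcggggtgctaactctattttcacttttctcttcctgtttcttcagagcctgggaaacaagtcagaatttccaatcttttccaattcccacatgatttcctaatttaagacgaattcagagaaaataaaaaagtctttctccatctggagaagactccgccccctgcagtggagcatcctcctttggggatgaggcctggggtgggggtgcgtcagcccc

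The kB consensus was found in 9 of the 13 windows, belonging to 7 of the 8 genes. RELA was the gene without a match in either of its windows. Of all 35114 RefSeq windows, 11.3% held such a match, and 13.3% of the windows of tested genes did. A match is a description of letters and does not show that a factor is bound.

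The same 10 letters lay in front of genes that moved in different directions. GGGAATTTCC, read on the strand of the match, was held by 4 of the genes and by 51 of the 35114 windows (0.145%).
NFKB1, 49 bases before its start: GGGAATTTCC
NFKBIZ, 223 bases before its start: GGGAATTTCC
NFKBIA, 81 bases before its start, opposite strand: GGGAATTTCC
REL, 46 bases before its start, opposite strand: GGGAATTTCC
In the counts below NFKB1 fell, NFKBIZ rose, and NFKBIA and REL did not pass the test. Other matches were shared in pairs.
BIRC3, 199 bases before its start, opposite strand: GGGGATTTCC
TNFAIP3, 55 bases before its start, opposite strand: GGGGATTTCC
NFKB2, 21 bases before the most downstream of its RefSeq starts here, and TNFAIP3, 67 bases before its start, opposite strand: GGGACTTTCC
Of all windows, 39 (0.111%) held GGGGATTTCC and 67 (0.191%) held GGGACTTTCC. BIRC3, TNFAIP3 and NFKB2, which hold these letters, all rose in the counts below, where 30.2% of all tested genes were higher. A link between letters and direction was not tested. The TNFAIP3 window begins inside the annotated gene, at a RefSeq start downstream of its outermost one. The map of matches around the start sites shows all windows.

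**Figure D1:**
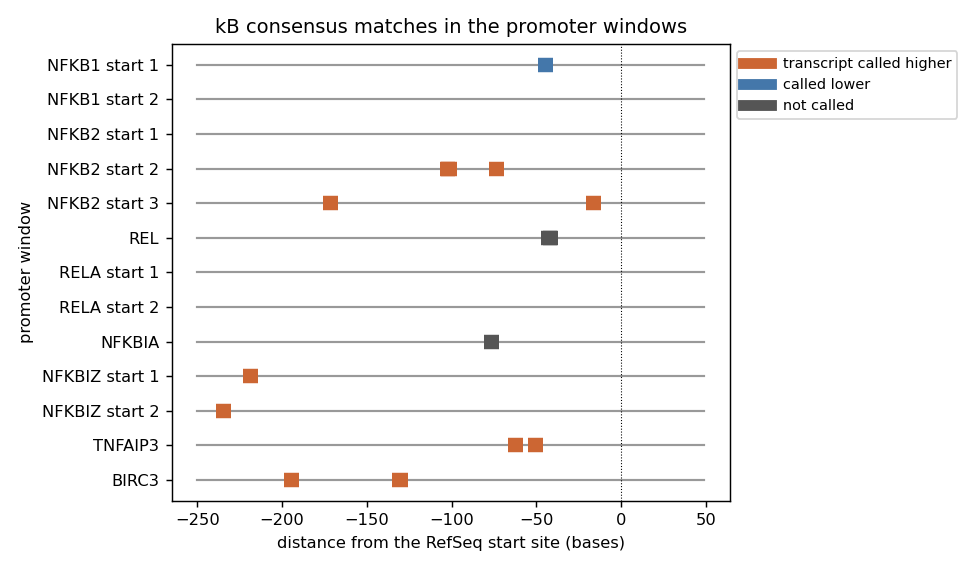
Positions of kB consensus matches (thick bars) in the 13 RefSeq promoter windows of 8 NF-kB genes, in bases from the start site. Bars are coloured by the change of the transcript under panobinostat, and the 2 RELA windows, 1 of the NFKB1 and 1 of the NFKB2 windows hold none.

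Total counts per library were 5389638 to 15106148, and the 10 genes together took 5037 to 19446 of them. On the first principal component of log2 expression, panobinostat replicate 4 lay at 18.3, between panobinostat replicates 1 and 2 (62.9 and 63.9) and the DMSO libraries (−49.1 to −47.6), so results are given with and without it. Of the 7 mesenchymal markers, 6 stood at 179.9 (ZEB1) to 2567 (VIM) CPM on average in DMSO, while SPARC had 35 counts in the 3 DMSO libraries together and was not tested. Under panobinostat VIM rose (log2 fold change 0.16 ± 0.05), ZEB1 (−0.91 ± 0.15), CAV1 (−0.65 ± 0.11), AXL (−0.34 ± 0.08) and MSN (−0.13 ± 0.04) fell, and CD44 was not called. The VIM call was lost with no filter (edgeR adjusted p = 0.297) and with DESeq2. The MSN call was lost on scaling by library size only (edgeR adjusted p = 0.0635). Both calls were also lost on leaving out any DMSO library, panobinostat replicate 1 or panobinostat replicate 2. The 7 summed to 7191 to 7306 CPM in DMSO and 6810 to 6919 CPM in panobinostat. Of the luminal markers, CDH1 had 1 count and ESR1 had 5 counts in the 3 DMSO libraries together, while KRT19 stood at 58.6 ± 2.61, EPCAM at 18.5 ± 1.66 and CLDN7 at 15.5 ± 0.503 CPM (SD, n = 3). KRT19 rose (2.42 ± 0.22), EPCAM fell (−0.77 ± 0.17) and CLDN7 was not called. CLDN4 was higher too (1.64 ± 0.29), but KRT19, EPCAM and CLDN7 made up nearly all of the luminal sum in DMSO. CLDN4 thus passed the filter on low counts only through the panobinostat libraries, and its call supports nothing. The 8 luminal markers summed to 91.5 to 99.1 CPM in DMSO and 233 to 406 CPM in panobinostat. Of the 3 leukocyte markers with counts, PTPRC and ITGAM were at 0 in DMSO, and all 3 summed to at most 0.678 CPM in DMSO and 3.29 CPM in panobinostat. The part of these markers in the NF-kB values was not tested. CPM are counts per 1000000 of the library total times its TMM factor. Such levels are relative, so neither a change in the total amount of RNA per cell nor a change in cell number can be seen in them.

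Panobinostat moved the NF-kB genes apart from each other. BIRC3, NFKBIZ, TNFAIP3, NFKB2 and NFKBIE rose, NFKB1 and RELB fell, and REL, RELA and NFKBIA did not pass the test (edgeR quasi-likelihood test, Benjamini-Hochberg adjusted p under 0.05 over 13341 genes). These 7 of 10 called genes stand beside 58.9% called among all tested genes, the 5 higher beside 30.2% and the 2 lower beside 28.6%, so the number of calls is near that of the whole table and is no result about these genes. The panobinostat and DMSO values did not overlap for 8 of the 10, beside 69.0% of all tested genes. A called change of at least 2-fold was found for BIRC3, NFKBIZ and NFKB1, 3 of 10, beside 15.5%. Without panobinostat replicate 4, 5 of the 10 were higher and 3 lower, 8 of 10 called, beside 37.7% higher, 37.2% lower and 74.9% called among all tested genes. The median log2 fold change was 0.12 over the 10 genes and 0.0028 over all tested genes.

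Within the Rel subunits NFKB1 and NFKB2, the genes of the precursor proteins p105 and p100, went in opposite directions. NFKB1 had 128, 119.7 and 121 CPM in DMSO replicates 1, 2 and 3, and 35.1, 32.0 and 78.9 CPM in panobinostat replicates 1, 2 and 4. All 3 panobinostat libraries were below all 3 DMSO libraries, with replicate 4 closer to DMSO than the other two. The mean fell from 123 ± 4.57 to 48.6 ± 26.2 CPM (SD, n = 3), a log2 fold change of −1.35 ± 0.30 (SE, edgeR adjusted p = 0.00661). Without panobinostat replicate 4 it was −1.86 ± 0.06. NFKB1 lost its call when low counts were not filtered out, where the edgeR adjusted p was 0.0966, the highest of the 14 alternatives. The lowest, 1.03e-173, came from the edgeR fit with the replicate number as a block, which rests on replicates 1 and 2 of each treatment. NFKB1 lies on chromosome 4 from 102501359 to 102617302 of GRCh38.p14.

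NFKB2 had 94.2, 99.1 and 95.0 CPM in the DMSO libraries and 139, 135 and 119.9 CPM in the panobinostat libraries. The groups did not overlap, and replicate 4 was again the panobinostat library nearest to DMSO. The log2 fold change was 0.45 ± 0.08 (SE, edgeR adjusted p = 0.00275), and NFKB2 stayed called under all 14 alternatives. Within each library, where scaling cancels, the log2 ratio of NFKB2 to NFKB1 per kb of exon was 0.04, 0.21 and 0.13 in DMSO. In panobinostat replicates 1, 2 and 4 it was 2.46, 2.56 and 1.09. Per kb of exon the 2 transcripts thus stood at near-equal levels in DMSO, and NFKB2 exceeded NFKB1 in each panobinostat library. NFKB2 lies on chromosome 10 from 102394110 to 102402529.

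RELB, the subunit that pairs with p52 in the non-canonical route, did not follow NFKB2. It had 30.8, 31.7 and 31.0 CPM in DMSO and 16.8, 14.3 and 25.7 CPM in panobinostat replicates 1, 2 and 4. Every panobinostat library was below every DMSO library, and the log2 fold change was −0.72 ± 0.19 (SE, edgeR adjusted p = 0.0130). Without panobinostat replicate 4 it was −0.96 ± 0.10. Without panobinostat replicate 1 the call was lost (edgeR adjusted p = 0.0518, the highest of the alternatives). The lowest, 2.72e-19, came from the edgeR fit with the replicate number as a block. The log2 ratio of RELB to NFKB2 per kb was −1.08 to −1.05 in DMSO and −2.48, −2.67 and −1.66 in panobinostat. RELB lies on chromosome 19 from 45001464 to 45038192.

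RELA, the transactivating subunit of the canonical dimer, had 111, 115 and 115 CPM in DMSO and 114, 114 and 103 CPM in panobinostat. The groups overlapped and the log2 fold change was −0.04 ± 0.07 (SE, edgeR adjusted p = 0.595). REL, the subunit c-Rel best known from lymphocytes, had 8.22, 8.40 and 11.3 CPM in DMSO and 8.55, 8.82 and 8.28 CPM in panobinostat. DMSO replicate 3 was the highest of the 6 libraries, the groups overlapped, and the log2 fold change was −0.11 ± 0.17 (SE, edgeR adjusted p = 0.592). The estimates for both stayed between −0.20 and 0.06 over all alternatives, and neither was called in any of them. RELA lies on chromosome 11 from 65653601 to 65663857 and REL on chromosome 2 from 60881574 to 60931612. In GENCODE 29 a non-coding transcript, AC010733.2, shares 5702 bases of exon with REL on the same strand. AC010733.2 has no row of counts here, and whether the counting included it is not known, so REL counts are uncertain to that extent.

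**Figure D2:**
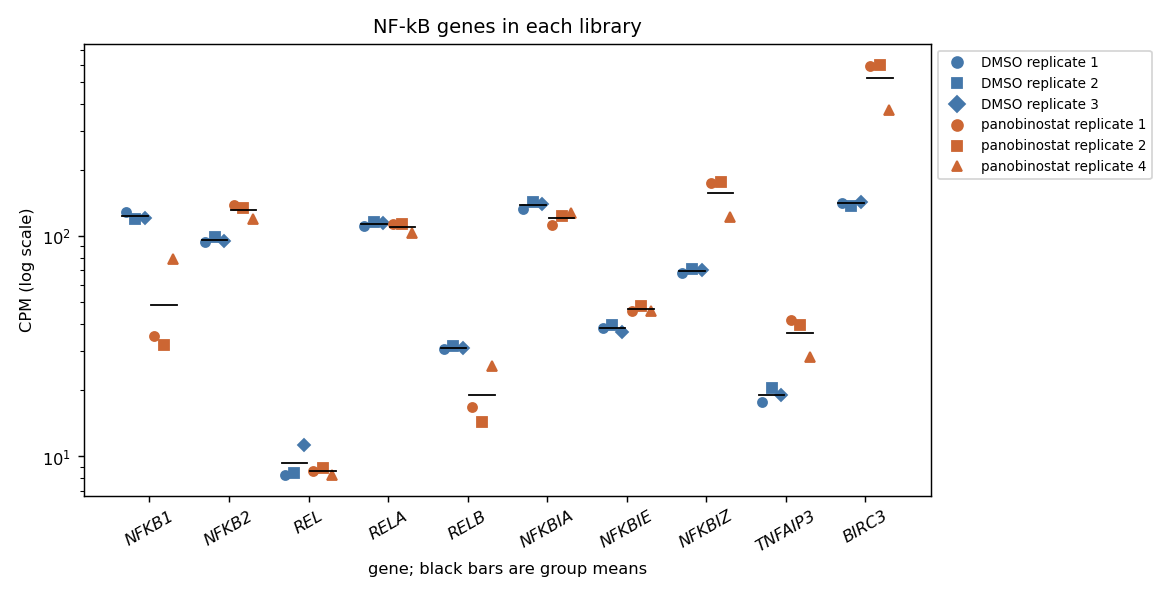
CPM (log axis) of the 10 NF-kB genes in each of the 6 libraries, with a marker for each replicate and black bars at the group means. In BIRC3, NFKBIZ and TNFAIP3 all panobinostat points lie above all DMSO points, in NFKB1 and RELB all lie below, and panobinostat replicate 4 (triangles) lies nearest to DMSO in each of these.

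Levels of different genes were compared per kb of exon, over the union of GENCODE 29 exons. The annotation used for the counts and the isoforms expressed are not known, and the order of near levels depends on these lengths. Before division the DMSO means were 123 CPM for NFKB1, 114 CPM for RELA and 96.1 CPM for NFKB2. In DMSO the order of the subunits was NFKB2 at 21.4 ± 0.580, RELA at 20.8 ± 0.393, NFKB1 at 19.6 ± 0.730, RELB at 10.3 ± 0.155 and REL at 0.707 ± 0.132 CPM per kb (SD, n = 3). The DMSO values of NFKB2 and RELA overlapped, as did those of RELA and NFKB1, while RELB and REL were apart from these and from each other. In panobinostat NFKB2 led at 29.2 ± 2.20, followed by RELA at 20.2 ± 1.10, NFKB1 at 7.78 ± 4.19, RELB at 6.25 ± 1.97 and REL at 0.649 ± 0.0207 CPM per kb. NFKB1 and RELB overlapped in panobinostat, with NFKB1 at 5.11 to 12.6 and RELB at 4.72 to 8.48. The summed level of the 5 subunits was 72.9 ± 0.468 CPM per kb in DMSO and 64.1 ± 3.02 in panobinostat.

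NFKB1 supplied 28.2%, 26.0% and 26.6% of the summed subunit level in DMSO and 8.83%, 8.32% and 18.7% in panobinostat replicates 1, 2 and 4. NFKB2 supplied 28.9% to 30.1% in DMSO and 48.6%, 48.99% and 39.7% in panobinostat. The share of RELB was 13.98% to 14.2% in DMSO and 8.73%, 7.69% and 12.6% in panobinostat. RELA held 28.1% to 28.9% in DMSO and 32.8%, 33.9% and 28.1% in panobinostat, so its shares overlapped in replicate 4. An exact test of 3 against 3 libraries cannot go below a two-sided p of 0.1, and no test was run on these shares. They are shares of transcript and say nothing of protein or of processed p50 and p52.

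**Figure D3:**
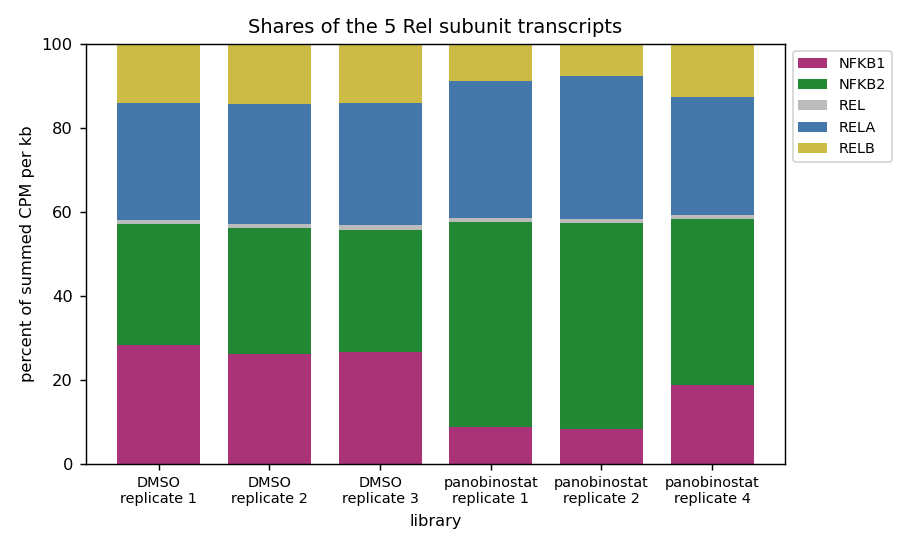
Share of each of the 5 Rel subunit transcripts in their summed CPM per kb of exon, as stacked bars for each of the 6 libraries. NFKB1 and NFKB2 are near equal in the 3 DMSO libraries, and NFKB2 takes 39.7% to 48.99% in the 3 panobinostat libraries.

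The inhibitor genes differed from each other. NFKBIZ, which encodes the nuclear IkB-zeta that works with p50 on a subset of secondary response genes, had 68.4, 70.7 and 70.0 CPM in DMSO and 174, 177 and 122 CPM in panobinostat replicates 1, 2 and 4. All panobinostat libraries were above all DMSO libraries. The log2 fold change was 1.18 ± 0.14 (SE, edgeR adjusted p = 0.000853), and 1.33 ± 0.05 without panobinostat replicate 4. NFKBIZ was called under all 14 alternatives and lies on chromosome 3 from 101827990 to 101861022.

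NFKBIA, the gene of IkB-alpha, which retains RELA dimers in the cytoplasm, had 133, 143 and 139 CPM in DMSO and 113, 124 and 128 CPM in panobinostat. The groups did not overlap but lay close, and the deepest library of each treatment, replicate 1, had its lowest value. The log2 fold change was −0.19 ± 0.07 and missed the threshold (SE, edgeR adjusted p = 0.0515). It was −0.24 ± 0.05 and called without panobinostat replicate 4 (edgeR adjusted p = 5.25e-05), and called in 6 of the 14 alternatives in all. The edgeR adjusted p ran from 6.18e-06, with the replicate number as a block, to 0.169 without DMSO replicate 2. NFKBIA lies on chromosome 14 from 35401513 to 35404749. Per kb it was the highest of the 10 genes in DMSO, at 58.3 ± 2.16 CPM per kb, and its 6 libraries together spanned 47.6 to 60.2.

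NFKBIE, the gene of IkB-epsilon, another cytoplasmic inhibitor, had 38.2, 39.4 and 36.8 CPM in DMSO and 45.8, 48.0 and 45.8 CPM in panobinostat. The groups did not overlap, and the log2 fold change was small, 0.28 ± 0.08 (SE, edgeR adjusted p = 0.0173). Its call was lost with no filter and without DMSO replicate 1, DMSO replicate 3, panobinostat replicate 1 or panobinostat replicate 2 (edgeR adjusted p of 0.0502 to 0.170, in a range of 0.000641 to 0.170 over the alternatives). NFKBIE lies on chromosome 6 from 44258166 to 44265551.

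Both feedback genes rose. TNFAIP3, which encodes a ubiquitin-editing enzyme that shuts down signalling at the TNF receptor complex, had 17.7, 20.5 and 19.1 CPM in DMSO and 41.6, 39.7 and 28.1 CPM in panobinostat. The groups did not overlap. The log2 fold change was 0.95 ± 0.16 (SE, edgeR adjusted p = 0.00268), and 1.12 ± 0.09 without panobinostat replicate 4. An antisense gene, AL357060.1, shares 95 bases of exon with TNFAIP3 and had 1 to 14 counts per library, where TNFAIP3 had 123 to 633. TNFAIP3 lies on chromosome 6 from 137866349 to 137883312.

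BIRC3, the gene of the ubiquitin ligase cIAP2, which takes part in the TNF receptor complex and in turnover of NIK, had the largest change of the 10. It had 142, 137 and 143 CPM in DMSO and 592, 601 and 374 CPM in panobinostat replicates 1, 2 and 4. The lowest panobinostat library was above the highest DMSO library by a wide margin, and the mean rose 3.71-fold, from 141 ± 3.04 to 522 ± 129 CPM. The log2 fold change was 1.89 ± 0.17 (SE, edgeR adjusted p = 0.000573), and 2.08 ± 0.04 without panobinostat replicate 4. Its paralogue BIRC2, which encodes cIAP1 and is the adjacent gene on chromosome 11, fell from 166 ± 5.19 to 124 ± 6.36 CPM (log2 fold change −0.42 ± 0.07, edgeR adjusted p = 0.00231). The log2 ratio of BIRC3 to BIRC2 per kb was −0.98 to −0.95 in DMSO and 1.61, 1.52 and 0.80 in panobinostat, so BIRC2 was the more abundant of the pair in each DMSO library and BIRC3 in each panobinostat library. BIRC3 lies on chromosome 11 from 102317484 to 102339403.

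In panobinostat the order of levels changed at the top. BIRC3 stood at 69.5 ± 17.1 CPM per kb, above NFKBIA at 51.1 ± 3.19 on average, although replicate 4 put BIRC3 at 49.7 and NFKBIA at 53.8. NFKBIZ reached 26.7 ± 5.25 from 11.8 ± 0.203 CPM per kb, NFKBIE 18.01 ± 0.497 from 14.8 ± 0.514, and TNFAIP3 7.22 ± 1.44 from 3.78 ± 0.276. The log2 ratio of NFKBIZ to NFKBIA went from −2.33 to −2.27 in the DMSO libraries to −0.69, −0.80 and −1.38 in panobinostat replicates 1, 2 and 4. NFKBIA against its main binding partner RELA stayed closer, at 1.46 to 1.51 in DMSO and 1.19, 1.32 and 1.51 in panobinostat on the same log2 scale.

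**Figure D4:**
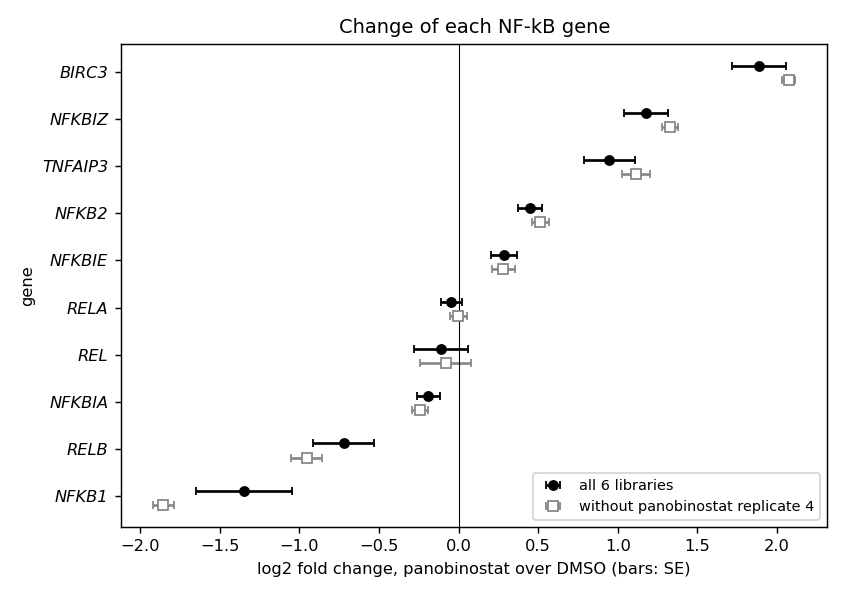
Log2 fold change of each NF-kB gene, panobinostat over DMSO, with its SE, in all 6 libraries (filled) and without panobinostat replicate 4 (open). The genes run from NFKB1 at −1.35 to BIRC3 at 1.89, and for NFKB1, RELB, NFKB2, TNFAIP3, NFKBIZ and BIRC3 the estimate lies farther from 0 without replicate 4.

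Panobinostat replicate 4 was the panobinostat library nearest to the DMSO mean in 6 of the 7 called genes and level with replicate 1 in NFKBIE, and over all 7853 called genes it was nearest in 92.6%. Over the DMSO mean, replicates 1, 2 and 4 stood at 2.07, 2.09 and 1.41 for BIRC3, at 1.32, 1.34 and 0.80 for NFKBIZ, at 1.12, 1.06 and 0.56 for TNFAIP3, at −0.89, −1.12 and −0.28 for RELB and at −1.81, −1.94 and −0.64 for NFKB1 on the log2 scale. Replicate 4 thus had the direction of the other two in each of these genes. The authors' deposited table, whose header does not name the direction of its comparison and whose sum over libraries exceeds that of the 6 used here, gives changes of the same sign for 10 of the 10 genes. Of the 10, 7 have an adjusted p under 0.05 in the authors' deposited table, with NFKBIA among them (0.0193) and NFKBIE not (0.0833). The authors' deposited table puts BIRC3 at a log2 fold change of 1.40 and NFKB1 at −1.23.

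The genes most like the 3 with the largest changes were found by the distance of log2 CPM, centred on the DMSO mean, over the 6 libraries among 9608 genes of at least 10 CPM. DNAJB1 and ATP7A lay nearest to BIRC3, with log2 fold changes of 1.89 ± 0.18 and 1.90 ± 0.18. PTPN9 and THBD lay nearest to NFKB1 (−1.37 ± 0.30 and −1.33 ± 0.29), and USB1 and SLC25A44 nearest to NFKBIZ (1.17 ± 0.14 and 1.18 ± 0.13). The distances were 0.041 to 0.089.

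Upstream of the 10 genes, ligands and receptors of the TNF, IL-1 and Toll-like families moved both ways. The list holds 25 genes, and of the 16 that could be tested 6 rose and 6 fell while 4 missed the threshold, with a median log2 fold change of −0.14. Among all tested genes 30.2% were higher, 28.6% lower and 58.9% called, and the counts in this and the following lists are to be read beside these shares. IL1A and IL1B, the genes of interleukin-1 alpha and beta, rose (2.61 ± 0.21 and 1.16 ± 0.13), as did the co-receptor gene IL1RAP (1.31 ± 0.15) and CD40 (1.27 ± 0.16). LTBR, the lymphotoxin beta receptor gene and a non-canonical input, fell (−1.05 ± 0.21), as did TLR3 (−1.06 ± 0.19), the TWEAK receptor gene TNFRSF12A (−0.80 ± 0.17) and TNFRSF1A, the main TNF receptor gene (−0.58 ± 0.13). A further 5 listed genes had counts too low to be tested, and no row carried the symbol TNF, LTA, LTB or CD40LG. Of the 30051 identifiers, 18982 had a symbol, and the rows without 1 were not searched for these genes.

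The kinases and adaptors around IKK moved by smaller amounts. All 27 could be tested, and 9 rose, 10 fell and 8 missed the threshold, with a median of −0.15, beside 30.2% higher and 28.6% lower among all tested genes. Without panobinostat replicate 4, 10 rose and 14 fell, beside 37.7% and 37.2%. BCL10, an adaptor of the antigen receptor route (0.85 ± 0.13), TAB3 (0.69 ± 0.12) and IRAK4 (0.46 ± 0.09) rose. TRAF3, which restrains NIK, fell from 138 ± 4.39 to 86.1 ± 17.9 CPM (−0.68 ± 0.13), as did TRAF1 (−0.66 ± 0.09) and TRAF2 (−0.57 ± 0.15). MAP3K14, the gene of NIK itself, rose by 0.43 ± 0.11. TRADD, the adaptor of the main TNF receptor, rose (0.52 ± 0.14) but was not called with low counts kept, nor on leaving out DMSO replicate 1, panobinostat replicate 1 or panobinostat replicate 2 (edgeR adjusted p of 0.0506 to 0.0639, in a range of 0.000305 to 0.0639). TRAF5 fell too (−0.79 ± 0.27). Its call was lost on leaving out any 1 of the 3 DMSO libraries, panobinostat replicate 1 or panobinostat replicate 2 (edgeR adjusted p of 0.0768 to 0.115). Without panobinostat replicate 4 its edgeR adjusted p was 3.47e-12.

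Of the other IkB family members and NF-kB repressors, 8 had enough counts, of which 2 rose, 3 fell and 3 missed the threshold, with a median of −0.06, so 5 of 8 were called beside 58.9% of all tested genes. NFKBID, the gene of the nuclear inhibitor IkB-NS, fell from 6.64 ± 0.519 to 2.33 ± 0.627 CPM (−1.56 ± 0.23), in contrast to its relative NFKBIZ. PDLIM2, which promotes RELA turnover, fell as well (−1.06 ± 0.16), and the genes of the IkB-interacting Ras-like proteins NKIRAS1 (0.70 ± 0.10) and NKIRAS2 (0.62 ± 0.12) rose. BCL3, a nuclear IkB that binds p50 and p52, fell (−0.59 ± 0.18), but was not called without DMSO replicate 2, DMSO replicate 3, panobinostat replicate 1 or panobinostat replicate 2 (edgeR adjusted p of 0.0671 to 0.0933, in a range of 6.69e-06 to 0.0933). NFKBIB (0.03 ± 0.12), NKRF (−0.06 ± 0.08) and COMMD1 (−0.06 ± 0.13) were not called.

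The 15 ubiquitin regulators were all tested, and 7 rose, 3 fell and 5 missed the threshold, with a median of 0.19, so 10 of 15 were called beside 58.9% of all tested genes. CYLD, a deubiquitinase that limits IKK activation, rose (0.61 ± 0.09), and the genes of the TNFAIP3-binding proteins TNIP1 (−0.70 ± 0.13) and TNIP3 (−0.70 ± 0.17) fell while TNFAIP3 itself rose. UBE2V1, a partner of the ubiquitin-conjugating enzyme UBC13 (0.56 ± 0.20), BTRC, the receptor of the ligase that marks IkB (0.43 ± 0.12), and RNF31, a subunit of the linear ubiquitin ligase (0.42 ± 0.14), rose by small amounts, and RBCK1, another subunit of that ligase, fell by 0.24 on the log2 scale. None of these 4 was called on leaving out DMSO replicate 2, DMSO replicate 3, panobinostat replicate 1 or panobinostat replicate 2, with an edgeR adjusted p of up to 0.189 for UBE2V1, 0.0697 for BTRC, 0.126 for RNF31 and 0.143 for RBCK1 over the alternatives. RBCK1 was also not called with upper-quartile scaling, scaling by library size only or DESeq2. UBE2V1 was also not called with no filter, with DESeq2 or without DMSO replicate 1, nor was RNF31 without DMSO replicate 1. The count of 7 higher depended on single libraries. It was 3 with no filter, 2 without DMSO replicate 1 or DMSO replicate 3, and 1 without DMSO replicate 2, panobinostat replicate 1 or panobinostat replicate 2, and 8 without panobinostat replicate 4.

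Known NF-kB target genes outside the 10 also went both ways. Of the 34 listed, 25 could be tested, and 13 rose, 8 fell and 4 missed the threshold, with a median of 0.37, beside 30.2% higher and 28.6% lower among all tested genes. The genes of the proteoglycan SDC4 (1.70 ± 0.17), the pentraxin PTX3 (1.39 ± 0.14) and interleukin-8, CXCL8 (1.36 ± 0.14), rose. The chemokine gene CCL20 had 10, 3 and 3 counts in DMSO and 344, 127 and 92 in panobinostat (4.97 ± 0.34). It passed the filter on low counts only through the panobinostat libraries, so it had to differ, and its call supports nothing. CFLAR, which encodes the caspase-8 inhibitor c-FLIP, fell from 41.6 ± 0.268 to 16.8 ± 8.02 CPM (−1.33 ± 0.27), in the opposite direction to BIRC3. The urokinase gene PLAU (−1.78 ± 0.49) and the cytokine genes LIF (−1.50 ± 0.32) and CSF3 (−1.45 ± 0.37) fell, but lost their calls when low counts were kept (edgeR adjusted p of 0.0796 for LIF, 0.136 for CSF3 and 0.165 for PLAU, each the highest of its alternatives). The filter kept only targets with enough counts, so 6 with counts, among them VCAM1, CCL2 and CXCL10, were not tested.

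**Figure D5:**
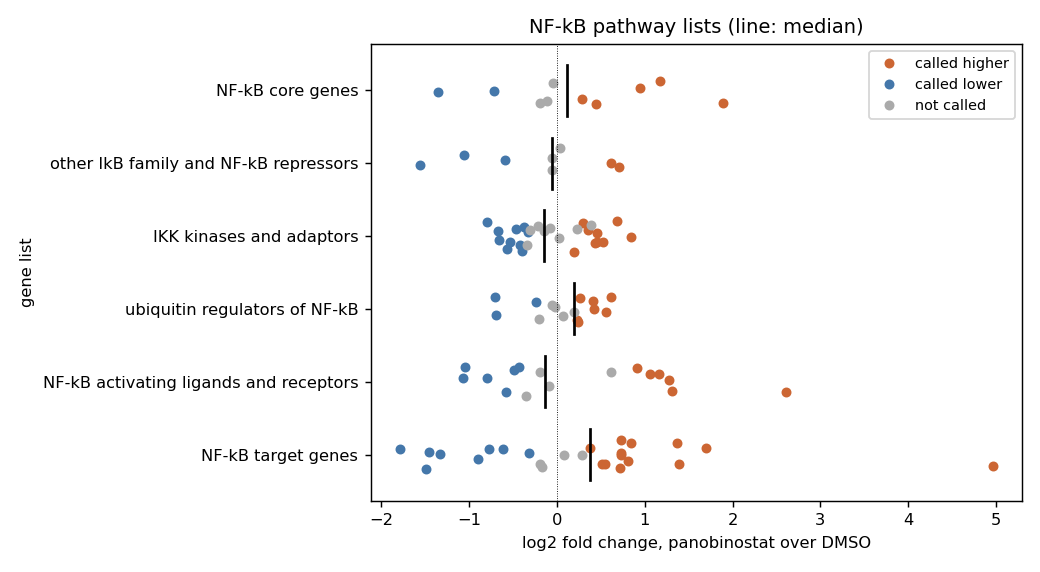
Log2 fold change, panobinostat over DMSO, of every tested gene in the NF-kB lists, coloured by call, with a black line at each list's median. Each list holds called genes on both sides of 0, and the medians lie between −0.15 and 0.37.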

How the data were processed

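RNA-seq counts of 6 MDA-MB-231 libraries were used, made with a stranded mRNA kit per the labels' protocols. The authors deposited raw counts per gene, attributed to featureCounts by the table's name, on GRCh38.p14 with FastQC per the submitters' processing notes. No source used here gives the aligner, annotation, versions or strand setting. The deposited table also holds the authors' mean normalised signal, log2 fold changes, their SE, a score (their quotient) and p-values with adjusted p-values, from an unnamed tool. Counts and comparison have separate identifier columns, which differ from line 62 on, so symbols were matched by identifier. A deposited sum column holds 76184320 counts against 52742848 in the 6 libraries, and where the excess comes from was not tested.

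Counts were fitted with edgeR 4.0.16 in R 4.3.3 (filterByExpr, TMM, robust quasi-likelihood, treatment as the only term), which tested 13341 genes. The script was tested on simulated data with few changed genes and no library between the groups, so that test does not cover changes as wide as these. The members and lists were chosen with earlier results of these data known. The rule for named genes takes all 10 members and up to 4 called genes per list and direction at 1 CPM or more. BIRC2 and MAP3K14 were named after their values were seen. Alternatives, 14 in all, were other scalings, no filter, DESeq2 1.42.0, limma 3.58.1 (voom, with and without library weights), a replicate block and each library left out. Symbols of 11 listed genes had no row and were not analysed here. Nothing beyond the series' word states that replicates were separate cultures.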

Additional observations from a re-analysis of the deposited data

How the results depend on the processing

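Over the 14 alternatives, none of the 10 NF-kB genes changed direction with a call. BIRC3, NFKBIZ, TNFAIP3 and NFKB2 were called in all of them, and REL and RELA in none. NFKB1 was lost in 1 alternative (no filter), RELB in 1, NFKBIE in 5, and NFKBIA was gained in 6, with the values given in the report, and the cause was not tested. The number of the 10 called higher was 4 to 5 and the number called lower 1 to 3 when each library was left out, against 5 and 2 with all libraries. Over all tested genes the counts were 3105 to 5024 higher and 2660 to 4969 lower when each library was left out, against 4032 and 3821. With DESeq2 size factors, 3958 were higher and 3918 lower. With the replicate number as a block, 5 of the 10 were higher and 3 lower, and 5031 and 4950 of all genes, with NFKB1 at −1.88 and BIRC3 at 2.09. In that fit DMSO replicate 3 and panobinostat replicate 4 are each alone in their block and add nothing to the treatment estimate. It thus rests on replicates 1 and 2 of each treatment and is not independent of the fit without panobinostat replicate 4. Only numbers 1 and 2 are shared between the treatments, and the deviations of same-numbered libraries from their group means correlated at 0.051 and 0.0081 across genes, so the numbers were not taken as pairs. Among the 15 ubiquitin regulators the number higher went from 7 to 3 with no filter and to 1 to 8 on leaving out each library. Depth limits REL most, with 48 to 130 counts per library.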

Other observations

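The genes beside BIRC3, NFKB1 and RELA were chosen after their values were seen, and they moved in different directions. Around BIRC3 on chromosome 11, the tested coding genes next to it were BIRC2, 7.81 kb away, which fell (log2 fold change −0.42 ± 0.07), YAP1, 84.0 kb away on the other side, which fell (−1.18 ± 0.24), TMEM123, which was not called (0.03 ± 0.05), and CFAP300, which rose (1.68 ± 0.24). Around NFKB1 on chromosome 4, MANBA, the lysosomal beta-mannosidase gene 13.5 kb downstream, rose (0.78 ± 0.14), while the zinc transporter gene SLC39A8 (−0.58 ± 0.13) and UBE2D3 (−0.52 ± 0.09) fell and BANK1 was not called (−0.72 ± 0.37, edgeR adjusted p = 0.123). Around RELA, which stood at −0.04 ± 0.07, SIPA1 at 2.67 kb rose (0.31 ± 0.08), the acetyltransferase gene KAT5 at 48.9 kb fell (−1.25 ± 0.19), and PCNX3 (0.02 ± 0.08) and RNASEH2C (0.02 ± 0.08) were not called. Distances are between gene ends in GENCODE 29.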
